A study of Homo sapiens with 8 samples.

Results

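FN1, THBS1, MUC4, COL1A1, PLAU and FRAS1 are genes for proteins that cells secrete into, anchor in or use to remodel their surroundings. They were described here in K562 cells, a human cell line established from chronic myeloid leukemia, as 6 of the 1950 genes of the deposited table. They were taken by gene name. The choice was made with their values in these libraries known, and the table itself lists genes that had passed the authors' own thresholds for a difference. The comparison between the groups is therefore given for these 6 genes as a description, and no test is read as a result for them.

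The extract libraries, 4 in number, came from cells treated for 3 days with Caulis Polygoni Multiflori, the stem of a medicinal plant, at 80 µg/mL. The labels abbreviate it as CPM, and it is called the extract here. The 4 control libraries came from K562 cells that had not received it, with no stated time in culture. Cells of both groups were grown in the same medium with serum. Separate cultures are not recorded for the libraries of either group, so the spread within a group may be technical.

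Fibronectin and thrombospondin are large glycoproteins that bind integrins and other receptors and hold cells and matrix together. Type I collagen forms the fibers of connective tissue, and FRAS1 belongs to the Fraser complex of the epithelial basement membrane. Urokinase cleaves plasminogen into plasmin, a protease that dissolves fibrin and matrix, and membrane mucins such as MUC4 form a glycosylated coat on the cell surface. In the blood lineages, fibronectin and thrombospondin are known as contents of platelet granules, whereas collagen I is made mainly by stromal cells.

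The values carry no unit in the sources used here and are called expression values. Whether levels of different genes can be compared is therefore not known. Sums over genes given below add the values as listed and are descriptions only. Depth is unknown, and over this partial list the library sums ranged from 13114 to 14134. The table gave HBZ, an embryonic globin that K562 cells are known to express, at 2834 to 2920 in the control and 4952 to 5306 in the extract libraries. It was the only listed gene of 16 erythroid and K562 markers. A gene that is not in the table was not analysed here, whatever its level.

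The upstream sequences of FN1 and THBS1 are shown because, of the 6 genes, these are the matrix glycoprotein genes with a higher mean in the extract libraries. The groups of THBS1 overlapped, as given below. Both are RefSeq sequences of GRCh38.p14, printed 5′ to 3′ on the gene's strand and ending at the last base before the gene record of GENCODE 29. Capitals mark matches to any of 11 motifs searched on both strands.
FN1, chromosome 2, 215436173 to 215436318, minus strand: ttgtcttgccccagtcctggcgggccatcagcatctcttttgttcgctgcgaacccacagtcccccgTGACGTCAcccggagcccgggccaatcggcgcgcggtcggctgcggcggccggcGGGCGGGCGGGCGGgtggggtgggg
THBS1, chromosome 15, 39580829 to 39581078, plus strand: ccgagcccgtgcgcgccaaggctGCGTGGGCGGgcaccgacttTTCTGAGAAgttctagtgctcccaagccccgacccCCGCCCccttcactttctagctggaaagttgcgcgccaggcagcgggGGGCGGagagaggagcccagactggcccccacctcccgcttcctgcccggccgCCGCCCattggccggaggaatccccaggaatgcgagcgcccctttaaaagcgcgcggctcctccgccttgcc

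In the 146 bases of FN1 the capitals are a CRE motif (TGACGTCA) and 3 overlapping GC boxes (GGGCGG), the letters bound by SP and KLF factors. In the 250 bases of THBS1 they are 4 GC boxes, an EGR motif (GCGNGGGCG) that overlaps the first of them, and a STAT motif (TTCNNNGAA). Over the 35116 RefSeq windows of 250 bases before a gene start, 42.6% held a GC box, 8.41% an EGR motif, 6.57% a STAT motif and 1.65% a CRE motif. Windows were found for 5 of the 6 genes, and all but the first of a pair for PLAU held a GC box. Both PLAU windows and the MUC4 window lie within the gene records whose positions are given below. The gene starts used for these windows are therefore not the starts of those records. The FN1 window lies partly within its record, and the 146 bases printed are those outside it. The windows of THBS1 and FRAS1 end before their records start. The MUC4 window held 1 GC box and 1 STAT motif, the second PLAU window 3 GC boxes and the FRAS1 window 1. The first PLAU window held a GATA motif (GATAA), which 20.4% of all windows have. None of the 6 windows held the AP-1 motif TGANTCA (6.57% of all windows), the E-box CACGTG (6.34%), the FOXO motif GTAAACA (2.98%), the SMAD motif GTCTAGAC (0.182%), TATAAA (10.7%) or the ETS motif CCGGAAGT (3.42%). The CRE motif was added to the search after the windows had been seen. These matches describe letters and say nothing of what binds there.

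FN1 (ENSG00000115414; chromosome 2, 215360440 to 215436172, GRCh38, minus strand) encodes fibronectin and was higher in every extract library than in any control library. Its expression values were 4.08, 3.45, 4.02 and 5.9 in controls 2, 3, 4 and 5, and 8.87, 9.69, 9.7 and 9.56 in extracts 1, 2, 3 and 4. The 4 extract libraries lay close together, whereas control 5 stood above the other controls without reaching the extract libraries. The means were 4.36 ± 1.06 and 9.46 ± 0.395 (SD, n = 4 each), a ratio of 2.17. Without control 5 the ratio was 2.46.

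THBS1 (ENSG00000137801; chromosome 15, 39581079 to 39599466, plus strand) encodes thrombospondin-1, an adhesive glycoprotein that also activates latent TGF-beta. Its expression values were 0.63, 0.47, 0.35 and 0.83 in controls 2 to 5, and 1.06, 0.78, 0.86 and 1.77 in extracts 1 to 4. The groups overlapped, since extract 2 lay below control 5, and extract 4 stood well above the other extract libraries. The means were 0.57 ± 0.208 and 1.12 ± 0.451, a ratio of 1.96, and without extract 4 the ratio was 1.58. In GENCODE 29 the genes FSIP1 and AC037198.2 overlap THBS1 on the opposite strand, and AC037198.1 overlaps it on the same strand. It is not known whether reads were counted by strand, so reads of these genes may not have been told apart.

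COL1A1 (ENSG00000108821; chromosome 17, 50183289 to 50201632, minus strand), which encodes the major chain of type I collagen, was lower in every extract library than in any control library. Its expression values were 0.58, 0.66, 0.47 and 0.67 in controls 2 to 5 and 0.36, 0.24, 0.33 and 0.32 in extracts 1 to 4. All 8 libraries were below 1, and the highest extract library (0.36) was under the lowest control (0.47). The means were 0.595 ± 0.0926 and 0.313 ± 0.0512, a value 1.90-fold lower with the extract. On the log2(value + 1) scale the difference of −0.28 came to −0.01 when each library was centred on its median over the genes tested below. That median differed by −0.27 (log2) between extract and control, and this scale compresses values under 1.

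FRAS1 (ENSG00000138759; chromosome 4, 78057570 to 78544269, plus strand) was listed at 0 in all 4 controls. In the extract libraries its expression value was 1.01 in extract 1 and 0.01, the smallest value that the table can show, in each of extracts 2, 3 and 4. The groups did not overlap, but only by this last decimal in 3 of the 4 libraries. Extract 1 held 97.1% of the summed extract value as listed. For FRAS1 the authors' deposited table lists 4.70 as the log2 fold change. No fold is given here, because the controls were listed at 0, and without extract 1 the extract mean was 0.01.

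**Figure D1:**
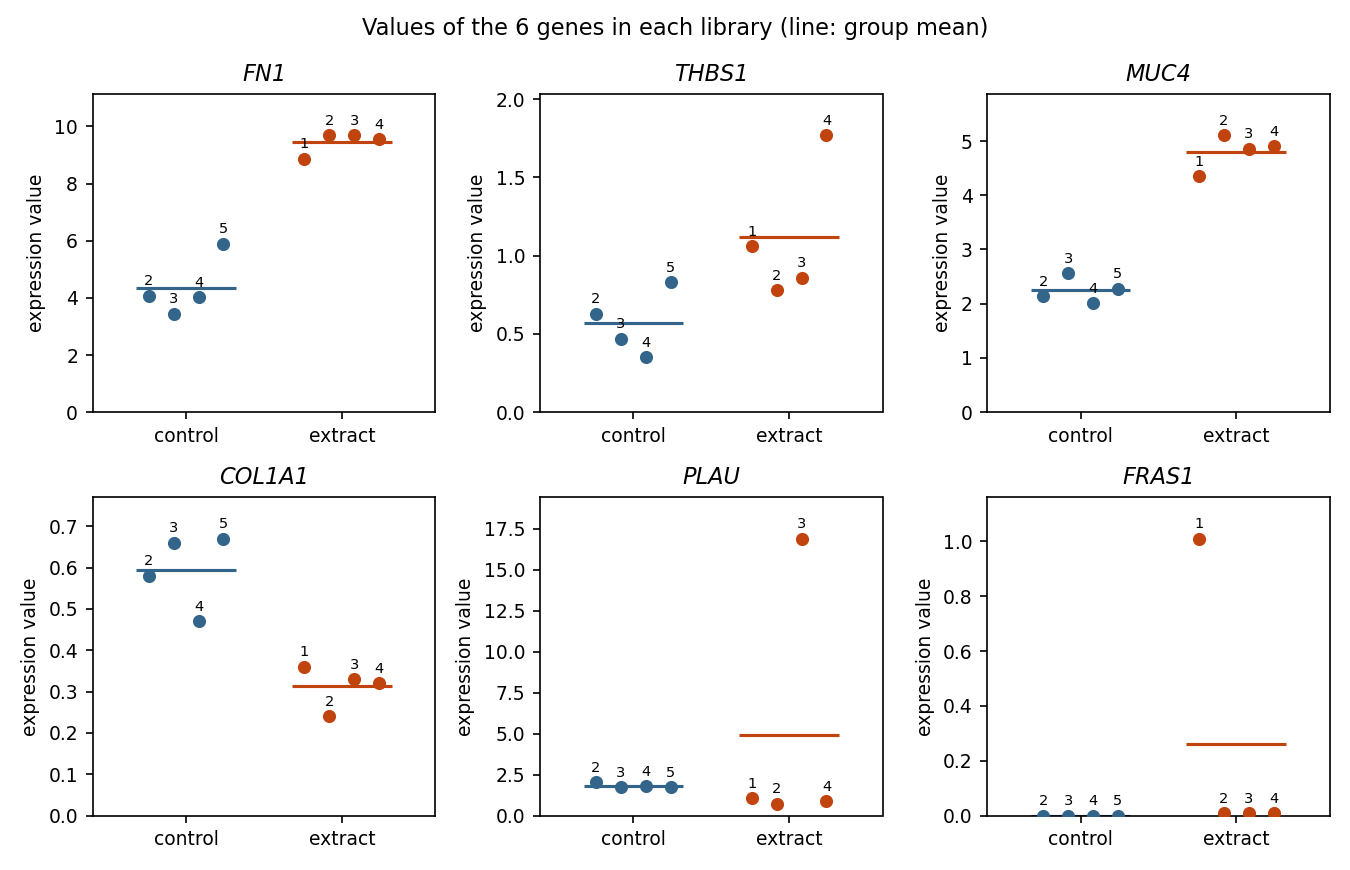
Expression value (no unit given, linear axis from 0) of each gene in the 4 control and 4 extract libraries. Points are libraries with their replicate number, and lines are group means. FN1, MUC4 and COL1A1 separate by group, THBS1 overlaps, and the extract means of PLAU and FRAS1 are set by extract 3 (16.89) and extract 1 (1.01).

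MUC4 (ENSG00000145113; chromosome 3, 195746765 to 195812277, minus strand), a membrane mucin that can bind the receptor ERBB2, was higher in every extract library than in any control. Its expression values were 2.14, 2.56, 2.01 and 2.28 in controls 2 to 5 and 4.35, 5.11, 4.86 and 4.9 in extracts 1 to 4. The lowest extract library lay far above the highest control, and no library stood apart in either group. The means were 2.25 ± 0.236 and 4.81 ± 0.323, a ratio of 2.14.

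PLAU (ENSG00000122861; chromosome 10, 73909177 to 73917497, plus strand) encodes urokinase, and its direction turned on a single library. Its expression values were 2.05, 1.75, 1.8 and 1.74 in controls 2 to 5, and 1.05, 0.74, 16.89 and 0.87 in extracts 1 to 4. Extracts 1, 2 and 4 were all below the lowest control, whereas extract 3 was above every control and 16.1 times the next extract library. With all libraries the means were 1.84 ± 0.146 in control and 4.89 ± 8.003 in extract, a ratio of 2.66. Without extract 3 the extract mean was 0.887 ± 0.156 (SD, n = 3), which is 2.07-fold lower than control. The group medians, 1.78 and 0.96, also placed the extract lower, as did the authors' deposited table, with −0.89 as its log2 fold change.

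In GENCODE 29 the gene C10orf55 (chromosome 10, 73909969 to 73922777) overlaps PLAU on the opposite strand and is not in the table. PLAU has 5 annotated transcripts there, from 160 to 2658 bases long. Whether either bears on the value in extract 3 was not tested.

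The deposited fold changes and the deposited library values gave the same direction for FN1, THBS1, MUC4 and COL1A1. Their log2 fold changes were 1.20, 0.94, 0.88 and −1.08 by the authors' deposited table. The log2 ratios of the group means were 1.12, 0.97, 1.10 and −0.93, in the same order, and those of the group medians 1.25, 0.80, 1.14 and −0.93. For PLAU the log2 ratio of means was 1.41 and that of medians −0.89. PLAU was thus 1 of 12 genes, among 1539 with both means above 0, whose ratio of means was opposite in sign to the authors' deposited fold change.

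**Figure D2:**
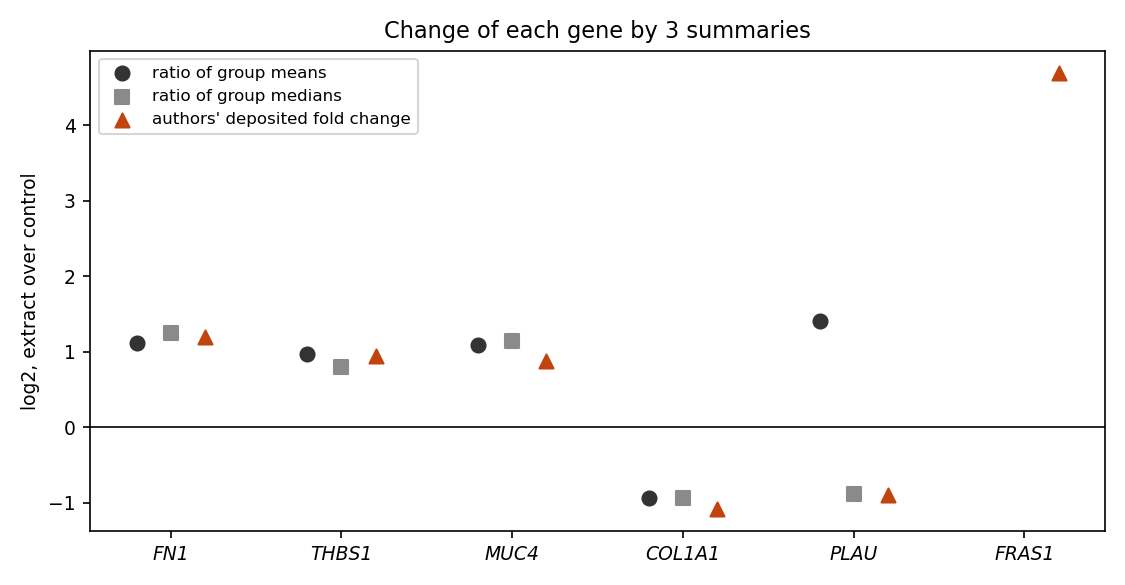
Log2 change with the extract over control for each gene, by the ratio of group means (circles), the ratio of group medians (squares) and the authors' deposited fold change (triangles). The 3 summaries lie close together for FN1, THBS1, MUC4 and COL1A1. For PLAU the ratio of means (1.41) is on the other side of 0 from the medians and the deposited value (both −0.89), and FRAS1 has the deposited value alone (4.70).

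A value held by 1 library was uncommon among the 750 genes that reached a value of 1 in 4 or more libraries, the filter used for testing. The highest extract library held a median of 30.1% of the summed extract value of a gene, where 4 equal libraries would share it evenly. It held at least 80% in 9 of the 750 genes (1.20%), of which extract 3 was the highest in 5, extract 2 in 3 and extract 1 in 1. In the controls this was so for 6 genes (0.800%). PLAU, at 86.4%, was 1 of 6 genes with a share this high or higher. FRAS1 is not among the 750. Of 1252 genes with an extract mean of at least 0.25, 22 had a share at or above that of FRAS1 (97.1%). The highest extract library held 25.6% for FN1, 26.6% for MUC4, 28.8% for COL1A1 and 39.6% for THBS1.

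**Figure D3:**
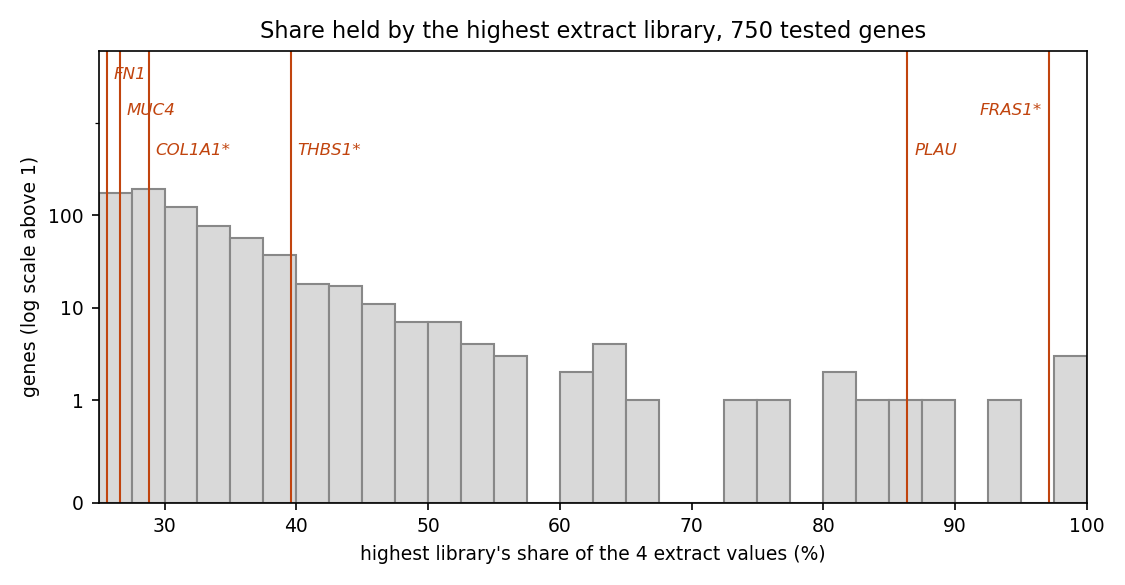
Number of genes (log scale above 1) by the percentage of the summed extract value that the highest of the 4 extract libraries held, for the 750 tested genes. Vertical lines mark the 6 genes, with a star for the 3 that were too low to be among the 750. FN1 (25.6%) and MUC4 (26.6%) lie among most genes, while PLAU (86.4%) and FRAS1 (97.1%) lie in the sparse right tail.

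Leaving out each library in turn kept the sign of the difference for every one of the 6 genes except PLAU. For FN1, MUC4, COL1A1 and FRAS1 this was fixed beforehand, since their groups did not overlap. On the log2(value + 1) scale the difference over the 8 fits lay between 0.90 and 1.11 for FN1, 0.80 and 0.88 for MUC4, 0.28 and 0.50 for THBS1, and −0.32 and −0.25 for COL1A1. For PLAU it was 0.22 with all libraries, −0.59 without extract 3 and at most 0.53 without another library. For FRAS1 it was 0.26 with all libraries and 0.01 without extract 1.

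**Figure D4:**
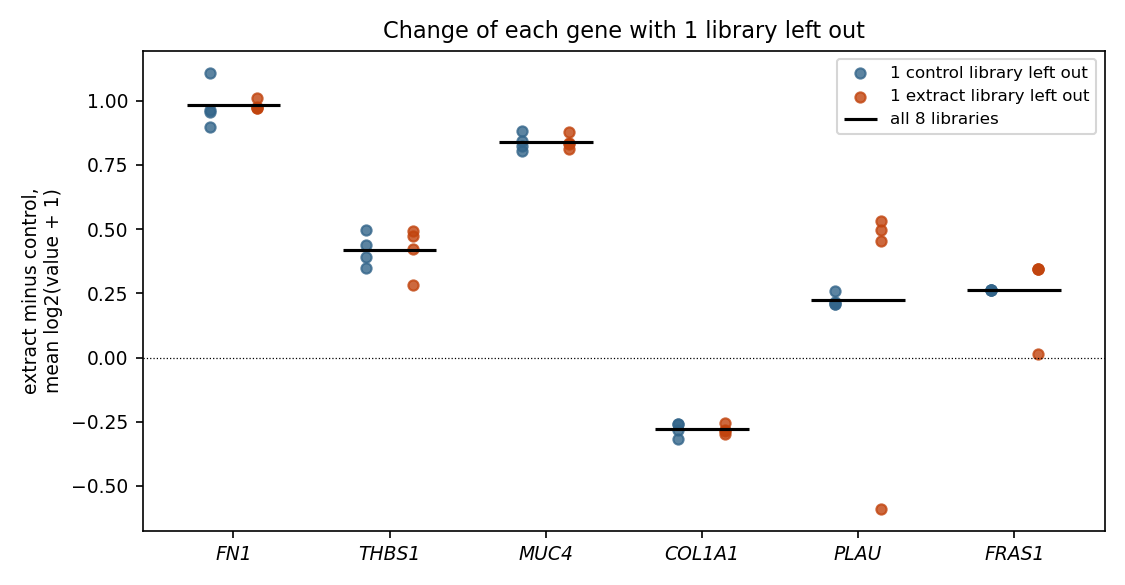
Difference of group means of log2(value + 1), extract minus control, for each gene. Black lines use all 8 libraries, and points leave out 1 control (blue) or 1 extract (red) library. Points stay near the line for FN1, MUC4 and COL1A1, while PLAU without extract 3 drops to −0.59 and FRAS1 without extract 1 to 0.01.

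In limma, fitted on log2(value + 1) over the 750 genes, 3 of the 6 genes could enter, namely FN1, MUC4 and PLAU. The differences were 0.98 ± 0.132 for FN1, 0.84 ± 0.0908 for MUC4 and 0.22 ± 0.705 for PLAU (SE, n = 4 each). They are given to show the spread and not as tests, since the genes were chosen on this comparison. THBS1, COL1A1 and FRAS1 did not reach the filter. Among all tested genes 82.8% passed the Benjamini-Hochberg threshold of 0.05, 26.8% higher and 56.0% lower with the extract, as the genes of the table were chosen for a difference between these libraries. The split between higher and lower was 201 to 420, against 228 to 241 with median centring and 222 to 251 with quantile normalization. All 6 genes were below 0.05 by the adjusted p of the authors' deposited table, against 45.9% of the 1950 genes, and 4 were higher, against 43.6%, and 2 lower, against 56.4%. The groups did not overlap for FN1, MUC4, COL1A1 and FRAS1, against 41.9% of the 1950 genes and 67.7% of the tested ones. Nothing is read from these counts for the 6 genes.

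Few other genes of the matrix and its proteases were in the table. Of 180 genes in 8 lists of matrix proteins, mucins, proteases and receptors 18 were listed, 9 higher and 9 lower in the authors' deposited table. Without the 6 genes there were 12 of 174, 5 higher and 7 lower, with a median deposited log2 fold change of −0.76, against −0.65 for the 1950 genes. By the authors' adjusted p, 4 of the 12 were below 0.05, all of them lower, against 45.9% of the 1950 genes. Of these 12 genes 5 could be tested, and in limma 4 fell, against the 56.0% lower given above, while CTSK did not pass. With median centring ADAM8 alone of them passed as lower and CTSK passed as higher, and with quantile normalization only ADAM8 passed, as lower. Since the table was chosen on the same comparison, these passes and the limma adjusted p-values given below, also for markers, are no independent evidence.

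Among matrix glycoproteins 4 of 25 were listed, FN1 and THBS1 higher and the fibulin gene EFEMP1 and the microfibril gene FBN1 lower. EFEMP1 fell from 2.24 ± 0.504 to 1.28 ± 0.405, by 0.51 on the log2(value + 1) scale (limma adjusted p = 0.018). Its groups touched, since the lowest control and the highest extract library were both at 1.87. The call of EFEMP1 was lost with median centring, quantile normalization and the replicate block (adjusted p = 0.208, 0.112 and 0.103). FBN1, too low to test, had values of 1.75, 0.79, 0.36 and 0.81 in controls 2 to 5 and 0.68, 0.19, 0.33 and 0.38 in extracts 1 to 4. Its control mean was raised by control 2, and the groups overlapped.

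Of 24 collagens 2 were listed, COL1A1 lower and COL4A3 higher. COL4A3, a basement membrane collagen, had values of 0.12 or less in every library. Of 19 genes of the Fraser complex and the basement membrane FRAS1 was the 1 listed, and of 17 mucins MUC4 and MUC6 were. MUC6, a secreted mucin, was at 0.05 or less in every library. LOXL2, which cross-links collagen, was the 1 listed of 20 collagen processing enzymes, at 0.223 ± 0.153 in control and 0.51 ± 0.241 in extract, with overlapping groups.

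The urokinase and plasminogen list had 4 of its 19 genes in the table, 3 lower and 1 higher in the authors' deposited table. S100A10, a partner of annexin A2 in binding plasminogen at the cell surface, was at 2.78, 1.98, 2.53 and 2.47 in controls 2 to 5 and 1.81, 1.61, 0.71 and 0.51 in extracts 1 to 4. The groups did not overlap, and it fell by 0.72 on the log2(value + 1) scale (limma adjusted p = 0.0157). With median centring and quantile normalization the limma adjusted p of S100A10 was 0.094 and 0.0777. Its adjusted p in the authors' deposited table was 0.0886. PLAT, the tissue-type plasminogen activator, was at 0.275 ± 0.174 in control and 0.0575 ± 0.0403 in extract. The plasminogen gene PLG was listed at 0 in the 4 controls and in extract 2, and at 0.46, 0.11 and 0.56 in extracts 1, 3 and 4. PLAT and PLG were too low to test, and their adjusted p-values in the authors' deposited table were 0.105 and 0.107. The receptor gene PLAUR was not in the table.

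Of 24 matrix proteases and inhibitors ADAM8, CTSK and MMP19 were listed. ADAM8, a membrane protease of leukocytes, fell from 6.20 ± 1.31 to 3.20 ± 0.578, by 0.77 on the log2(value + 1) scale (limma adjusted p = 0.00241), and its groups did not overlap. The cathepsin K gene CTSK, which encodes a collagen-degrading enzyme, was at 1.06 ± 0.346 and 1.45 ± 0.482 (limma adjusted p = 0.212), and it passed as higher with median centring (adjusted p = 0.0341) and with the replicate block (adjusted p = 0.0473). MMP19 was at 0.31 or less in every library. Of 32 receptors for matrix proteins ITGA2B, the alpha chain of the platelet fibrinogen receptor, was the 1 listed, at 2.7 to 4.44 in control and 1.64 to 2.53 in extract. It fell by 0.57 on the log2(value + 1) scale (limma adjusted p = 0.00972), and the call was lost with median centring and quantile normalization (adjusted p = 0.105 and 0.0976).

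**Figure D5:**
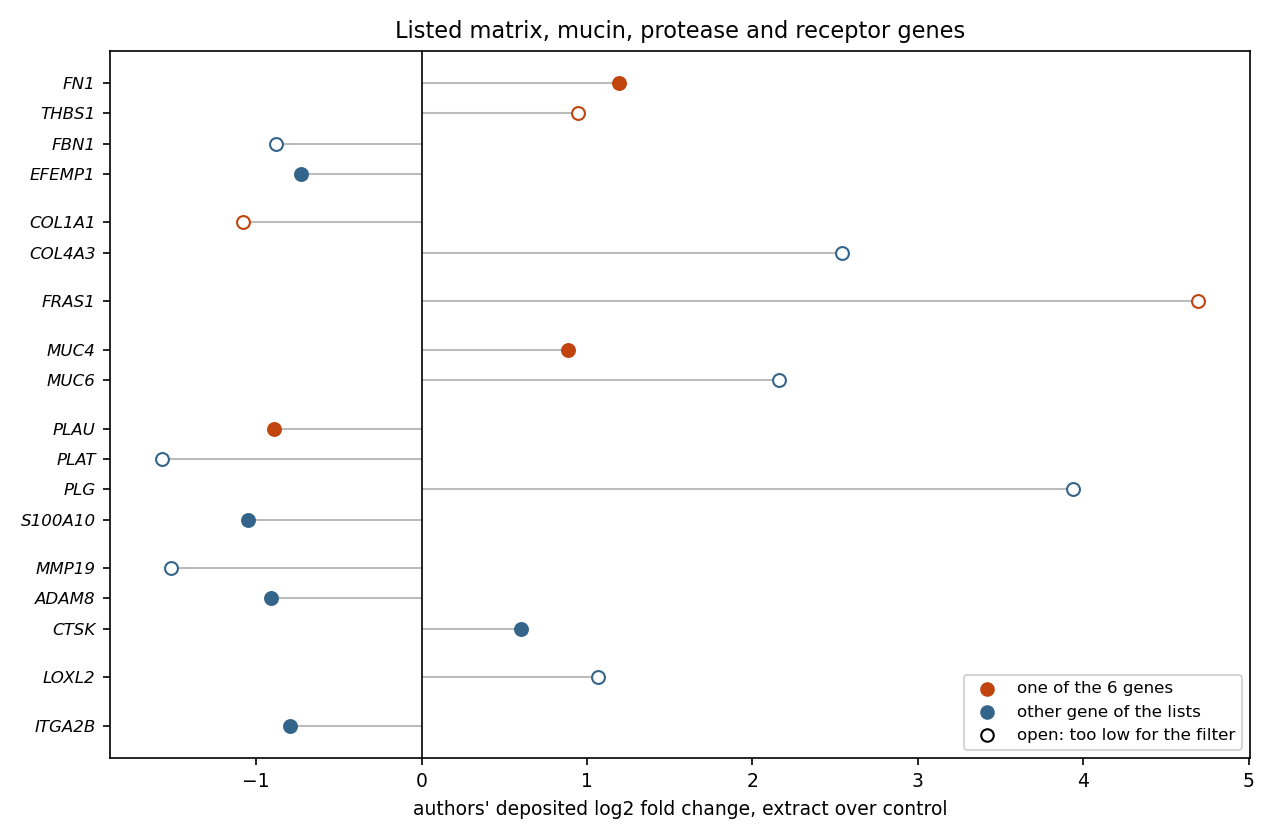
Authors' deposited log2 fold change (extract over control) of the 18 listed genes of the 8 lists, in list order from glycoproteins at the top to receptors at the bottom. Red marks the 6 genes, blue the other listed genes, and open symbols those too low for the filter. The far right symbols, FRAS1 (4.70) and PLG (3.94), belong to genes listed at 0 in all controls.

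Markers of other cells that make these proteins were mostly not in the table. COL1A1 was the only listed gene of 14 fibroblast and stromal markers, and 0 of 12 epithelial markers were listed. Of 10 endothelial markers PECAM1 and CLDN5 were listed, with a summed level of 2.24 to 3.23 in control and 1.64 to 2.92 in extract. PECAM1 fell by 0.41 on the log2(value + 1) scale (limma adjusted p = 0.0437), whereas CLDN5, too low to test, was at 0.24 ± 0.118 in control and 0.475 ± 0.214 in extract. The PECAM1 call was lost with median centring, quantile normalization and the replicate block (adjusted p = 0.451, 0.278 and 0.152), without the filter (0.0671), and without control 3, 4 or 5 or extract 1, 2 or 3 (0.0519 to 0.109). Of 13 megakaryocyte and platelet markers ITGA2B, GP1BB and THBS1 were listed, with a summed level of 56.3 to 120.1 in control and 46.7 to 60.4 in extract. The sum is mostly GP1BB and hides opposite directions, since THBS1 had the higher mean with the extract, while ITGA2B and GP1BB fell. GP1BB, a chain of the platelet receptor for von Willebrand factor, was at 81.2 ± 27.3 in control and 49.8 ± 5.63 in extract, and fell by 0.64 on the log2(value + 1) scale (limma adjusted p = 0.0268). The GP1BB call was lost with median centring and quantile normalization (adjusted p = 0.171 and 0.934), the latter with a difference of 0.02, and without control 2, extract 2 or extract 3 (0.0583, 0.0568 and 0.0614). No listed marker was at 0 in any library. The part of other cell types in the values of the 6 genes was not tested, and in bulk RNA fewer cells with a transcript and less of it per cell cannot be told apart.

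Whether the 6 genes vary together within the groups cannot be settled with 8 libraries. The deviations of PLAU and FRAS1 are each set largely by 1 library. After the group means were taken away, Pearson's r over the 8 libraries lay between −0.59 (MUC4 with FRAS1) and 0.49 (THBS1 with COL1A1) for the 15 pairs, as a description over libraries that share their groups. FN1 and THBS1, both highest among the controls in control 5, had an r of 0.41.

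The genes most like each of the 6 within the groups were taken as the 3 with the highest such r among the up to 571 named tested genes. This r leaves out the difference between the groups, so such a gene may change in the other direction with the extract. For FN1 these were FBXL16 (r = 0.94), RNF139-AS1 (0.89) and SLFNL1-AS1 (0.88). With the group means kept, r was −0.46, −0.88 and 0.98, as FBXL16 and RNF139-AS1 were lower with the extract. FBXL16 was at 10.6 in control 5 and at 2.62 to 3.39 in the other controls, so the likeness to FN1 rested largely on that library. For THBS1 they were OR51B8P (0.87), SLC7A5P1 (0.87) and RDH5 (0.81), and each of these was highest in extract 4, as THBS1 was. For MUC4 they were PRAF2 (0.92), MRPS30-DT (0.85) and HECW2-AS1 (0.84). With the group means kept, r was 0.56, −0.49 and −0.81, as MRPS30-DT and HECW2-AS1 had lower means with the extract. For COL1A1 the most like genes were AKR1E2 (0.93), ZNF551 (0.88) and IFITM2 (0.87).

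For PLAU the most like genes were U2 (0.94), DUSP8 (0.91) and ERBB3 (0.90). U2, a small nuclear RNA gene with many near-identical copies and so uncertain values, was at 16.77 in extract 3 and 1.22 to 2.23 in the other extract libraries. It was also among the 12 genes whose ratio of means opposed the deposited fold change. DUSP8 was at 1.3 in extract 3 and 0.4 to 0.65 in the others, and ERBB3 at 2.55 and 1.19 to 1.63. For FRAS1 they were TRIM47 (0.97), TMEM217 (0.89) and LINC00355 (0.88), each highest among the extract libraries in extract 1. TRIM47 was at 3.04 there and at 1.84 to 2.08 in the others, so for PLAU and FRAS1 the likeness followed 1 library.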

How the data were processed

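RNA of 8 K562 libraries was sequenced after TRIzol extraction and a TruSeq preparation, per the labels' protocols. HISAT2, StringTie and GRCh38 are named, with no version or role, per the submitters' processing notes. The deposited table holds an expression score per gene and library, of unstated unit, with 2 decimals, and called expression value here. The authors also deposited, by an unstated tool, group means (equal to the means of these values), a fold or ratio with its log2, and p-values before and after adjustment. All 1950 listed genes reach a deposited p-value of at most 0.0499 and changed by a deposited fold of at least 1.5 either way. The deposited values are not counts, so depth, counting error and zero limits are unknown.

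From these values group means, SDs, ratios and library shares were computed. limma 3.58.1 (R 4.3.3), with trended and robust moderation, was fitted on log2(value + 1) for genes reaching 1 in 4 or more of the 8 libraries, and Benjamini-Hochberg adjusted p-values were taken over these 750 genes. This scale understates changes of low genes. Gene positions and overlaps are from GENCODE 29, promoter windows from RefSeq (GRCh38.p14). The members, lists, test and alternatives were chosen with earlier results of these data known. Named genes were the 6 members, up to 4 listed genes per list by highest mean value, and for each member the 3 tested genes with the highest within-group r. COL4A3, MUC6 and other low genes were named to account for every listed gene. The result of 1 further gene is not reported here, and the lists leave it out. Alternatives were other pseudocounts (0.1, 0.5), medians, median centring, quantile normalization, no filter, plain moderation, a replicate block, each library left out, rank correlation and scaling by library sum.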

Additional observations from a re-analysis of the deposited data

Results flagged for a closer look

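In 78 groups of 4 libraries, from the genes named above, the highest or lowest library was examined for a gap to its neighbour that, divided by the group's range, exceeds Dixon's critical value. This was so for 12 groups. Chance flags about 1 in 20 groups, but most genes here were chosen with their values known or for following a member, so 12 is not set against that share. In the flagged groups of FRAS1, SLC7A5P1, MUC6 and COL4A3 the other libraries were listed at equal values. The ratio there is 1 whatever the size of the gap. The values are given without explanation.

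Among the 6 genes, PLAU was highest in extract 3 (16.89, others 0.74 to 1.05), FRAS1 in extract 1 (1.01, others 0.01), and FN1 was lowest in extract 1 (8.87, others 9.56 to 9.7). The FN1 gap is small beside the distance between the groups. Of the genes most like them within groups, U2 was highest in extract 3 (16.77, others 1.22 to 2.23) and LINC00355 in extract 1 (5.29, others 3.01 to 3.26). FBXL16 was highest in control 5 (10.6, others 2.62 to 3.39), as were RNF139-AS1 (15.05, others 12.62 to 12.9) and SLC7A5P1 (1.02, others listed at 0). AKR1E2 was lowest in control 4 (1.85, others 2.79 to 2.81). These genes were chosen for following a member, so their gaps are not independent of it. Of the other listed genes, MMP19 was highest in control 5 (0.31, others 0.09 to 0.1), MUC6 in control 2 (0.03, others listed at 0) and COL4A3 in control 3 (0.01, others listed at 0).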

How the results depend on the processing

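FN1, MUC4, THBS1, COL1A1 and FRAS1 kept their sign under every alternative run. For FN1, MUC4, COL1A1 and FRAS1, whose groups did not overlap, only a rescaling of the libraries could have changed the sign. PLAU changed sign with medians (−0.50) and without extract 3; over the fits leaving out 1 library it ranged from −0.59 to 0.53. A pseudocount of 0.1 gave log2 differences of 0.85 for THBS1, 1.07 for MUC4, −0.75 for COL1A1 and 0.97 for FRAS1, and a pseudocount of 0.5 gave 0.95 for MUC4 and −0.43 for COL1A1, as smaller pseudocounts shrink low values less. Median centring gave 1.25 for FN1, 0.69 for THBS1, 1.11 for MUC4 and −0.013 for COL1A1, and quantile normalization 1.23 for FN1 and 1.07 for MUC4; genes below the filter have no quantile value. Both scalings use genes chosen as changed. Of 750 tested genes 621 passed, 201 higher and 420 lower, against 228 higher and 241 lower with median centring and 222 and 251 with quantile normalization. Of the 8 lists 6 genes passed, 2 higher and 4 lower, against 3 higher and 1 lower with median centring and 3 in all, 2 higher and 1 lower, with quantile normalization. A pass of a member within these counts is not read as a result. Rank correlation gave 0.81 for FN1 with FBXL16 and 0.71 for COL1A1 with AKR1E2.

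Replicate numbers 2, 3 and 4 occur in both groups, but no source says that they mark a shared batch. Deviations from group means correlated at 0.0754, 0.0754 and 0.149 for the same-numbered libraries, so the numbers were not taken as pairs. Still, each of these 6 libraries correlated best with its own number among 2, 3 and 4 of the other group. Differently numbered libraries gave −0.124 to 0.0239, and extract 1 and control 5 were not compared. With the replicate block 511 tested genes passed, against 621. Extract 1 and control 5 share no number, so in that fit the difference rested on the other 6 libraries, and the move cannot be put down to the block alone. The block differences were 1.14 for FN1, 0.50 for THBS1, 0.88 for MUC4, −0.27 for COL1A1, 0.44 for PLAU and 0.01 for FRAS1. The unknown depth limits what the values of COL1A1, THBS1 and FRAS1 can show.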
